A study of Sus scrofa with 16 samples.

Results

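ODC1 and SAT1 encode ornithine decarboxylase, the first enzyme of polyamine synthesis, and spermidine/spermine N1-acetyltransferase, the enzyme that starts polyamine breakdown. Both genes were chosen by name from the platform annotation with their earlier results in these data known. They were 2 of the 6765 genes named on the array and had 3 of its 24123 probe sets, 2 for ODC1 (NCBI gene 414408) and 1 for SAT1 (NCBI gene 397645). The arrays came from the diaphragm, the main breathing muscle, and the psoas major, a loin muscle, of 8 Iberian pigs slaughtered at 211 days of age. Of the 4 males, animals 1 and 4 were on the high feeding level and animals 2 and 3 under 20% feed restriction. Of the 4 females, animals 6 and 7 were on the high level and animals 5 and 8 restricted. From every animal there was 1 array of either muscle, which left 2 arrays for each combination of muscle, sex and feeding level. All animals ate 1 kind of pelleted feed before the restriction, and neither its start nor any castration of the males is given in the sources used here.

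Putrescine, spermidine and spermine are small positively charged molecules that bind nucleic acids and are needed for growth and protein synthesis. Ornithine decarboxylase makes putrescine from ornithine, and spermidine synthase and spermine synthase then lengthen it with aminopropyl groups taken from decarboxylated S-adenosylmethionine. SAT1 acetylates spermidine and spermine, which are then oxidised back towards putrescine or leave the cell. Both enzymes turn over fast: polyamines induce antizyme, which sends ornithine decarboxylase to the proteasome, and they raise SAT1. In skeletal muscle ODC1 is known as a gene that responds to androgens and growth. The arrays measured transcripts only, not the enzymes or the polyamines.

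The values are the deposited log2 GCRMA expression values, 1 per probe set and array. A probe set was tested if its value was at or above 4 on at least 4 of the 16 arrays, which 11467 probe sets met, and was called at a limma adjusted p under 0.05. Between 11107 and 11243 probe sets per array lay at or above 4. Of the 3 member probe sets, 2 passed this filter, both in each muscle and each feeding group. The second ODC1 probe set lay between 2.77 and 2.79 on all 16 arrays, below the value of 4 everywhere, and was not tested. All ODC1 results therefore rest on 1 probe set, as do those of SAT1. The level of 1 probe set cannot be set against that of another, so that ODC1 and SAT1 are compared by their differences between samples. Skeletal muscle markers were high in both muscles: CKM, the muscle creatine kinase, averaged 15.16 in diaphragm and 15.15 in psoas, and MYH2, a fast myosin heavy chain, 12.52 and 15.26.

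ODC1 was higher in psoas and SAT1 higher in diaphragm, each in all 8 animals. In diaphragm, ODC1 measured 6.49, 6.10, 6.91, 7.51, 6.47, 6.68, 7.69 and 5.95 in animals 1 to 8 (log2). In psoas the same animals had 8.35, 7.32, 7.01, 8.21, 6.79, 6.99, 7.96 and 6.50. The ranges of the muscles overlapped widely, since animals 4 and 7 were high and animal 8 low in both. Means were 6.72 ± 0.62 in diaphragm and 7.39 ± 0.70 in psoas (SD, n = 8 arrays each). Over all tested probe sets, 11.7% were higher in psoas in 8 of 8 animals.

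The size of the ODC1 difference varied strongly between animals. The psoas value exceeded the diaphragm value by 1.86 in animal 1 (3.63-fold) and 1.22 in animal 2 (2.33-fold), both males. Animal 1 had the highest psoas value of all and a diaphragm value near the median of 6.58, and animal 2 had the second lowest diaphragm value. It exceeded it by 0.69 in animal 4, 0.56 in animal 8, 0.33 in animal 5, 0.31 in animal 6, 0.27 in animal 7 and only 0.10 (1.07-fold) in animal 3. The fitted difference was 0.67 ± 0.21 (log2, SE), or 1.59-fold, and was 0.50 without animal 1. These differences chose the gene, so that no test is given.

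SAT1 differed by a similar amount in 7 of the 8 animals and by more in animal 7. In diaphragm it measured 10.53, 10.24, 10.43, 9.67, 10.51, 10.09, 9.99 and 10.67 in animals 1 to 8. In psoas it measured 9.72, 9.37, 9.42, 8.64, 9.70, 9.26, 8.60 and 9.85. The ranges of the muscles met only through animal 4, whose diaphragm value lay below the psoas values of animals 1, 5 and 8. The within-animal differences lay between -0.80 and -1.03 in 7 animals and reached -1.39 in animal 7. The fitted difference was -0.94 ± 0.16 (SE), so that SAT1 was 1.92-fold higher in diaphragm, again a description of what chose the gene. Over all tested probe sets, 9.71% were higher in diaphragm in 8 of 8 animals.

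**Figure D1:**
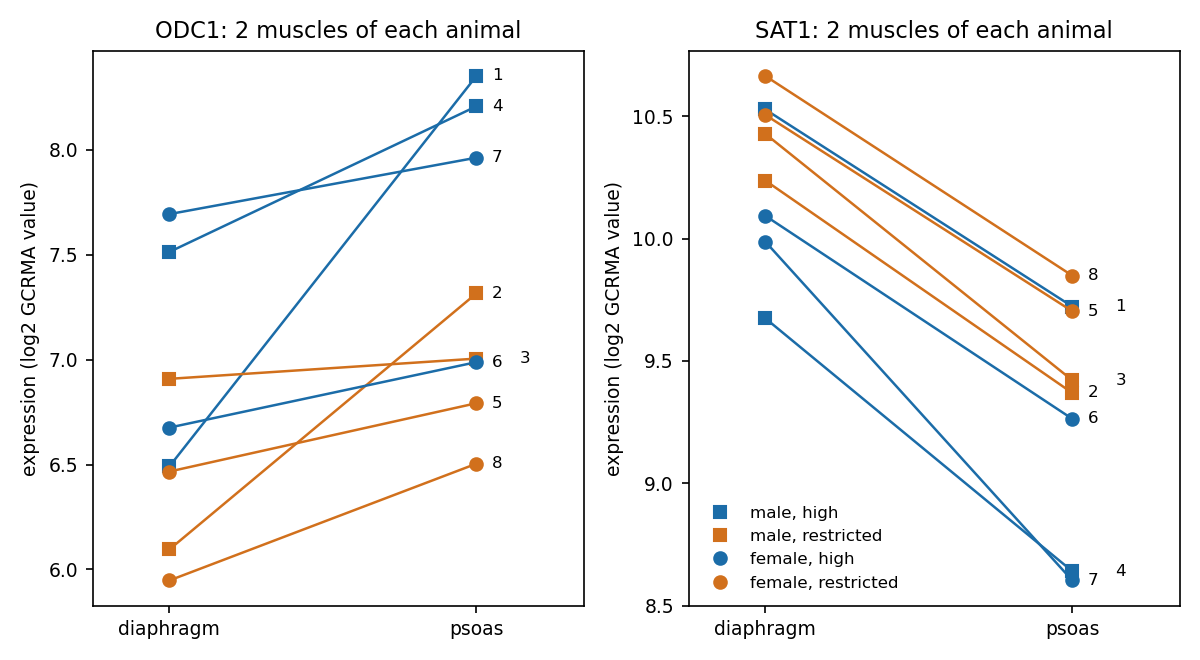
Expression of ODC1 (left) and SAT1 (right) in the diaphragm and psoas of each animal, in log2 GCRMA values; each line is 1 animal with its number, colour gives the feeding level and marker the sex. All ODC1 lines run upward by 0.10 to 1.86 and all SAT1 lines downward by 0.80 to 1.39.

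Subtracting SAT1 from ODC1 on each array sets synthesis against breakdown. Its level has no meaning by itself, since probe sets differ in response, but its change shows how unequally both transcripts moved. The psoas value exceeded the diaphragm value by 1.61 ± 0.55 (SD, n = 8 animals), from 1.10 in animal 3 to 2.67 in animal 1. In 6 of the 8 animals, animals 3, 4, 5, 6, 7 and 8, SAT1 gave the larger part of this gap, and in animals 1 and 2 ODC1 did. The gap is a description, since both genes were chosen with their opposite muscle differences known.

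Transcripts of cell type markers differed between the muscles as well. Of the marker lists, all 6 tested endothelial genes, 3 of 5 immune, 3 of 5 fibroblast, 3 of 4 adipocyte and 7 of 7 hepatocyte genes were called higher in diaphragm, against 12.4% of all probe sets. The fibroblast gene COL3A1, a collagen chain, was called higher in psoas, with means of 4.98 in diaphragm and 5.43 in psoas. The summed level (log2 of the sum) of endothelial markers was 10.68 to 11.25 in diaphragm and 9.93 to 10.55 in psoas, with KDR and TIE1 below 4 on every array. That of immune markers was 9.76 to 10.67 and 9.24 to 9.85, with PTPRC, CD14 and CD3E below 4 on every array, that of fibroblast markers 12.50 to 13.23 and 11.64 to 12.44, and that of adipocyte markers 12.04 to 12.71 and 11.06 to 11.83, with LEP below 4 on every array. That of hepatocyte markers was 8.12 to 11.37 and 7.13 to 7.96, with TTR and SERPINA1 below 4 on every array. The hepatocyte genes ALB, FGB and HP had psoas means of 2.96, 2.84 and 2.29, while APOA1 had means above 4 in both muscles. The tested adipocyte gene ADIPOQ had means of 3.58 in diaphragm and 2.31 in psoas. Genes so low in psoas passed the filter largely through diaphragm. The count of 7 of 7 thus depends in part on the filter, and that of 3 of 4 may too. Their comparison with 12.4% carries little weight. Among the rest, 1 of 2 Schwann cell markers and 1 of 6 smooth muscle markers were higher in diaphragm and 1 smooth muscle marker in psoas, no mesothelial marker reached 4, and none of 3 erythrocyte markers was called. In bulk samples fewer cells of a type and less RNA per cell cannot be told apart, and the part of these cells in the SAT1 and ODC1 differences was not tested.

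A sign of RNA quality also split the diaphragm arrays. The array carries control probe sets for both ends of the actin transcript, and their difference (3' minus 5', log2) grows as RNA is degraded. It was 4.07 to 4.33 in the diaphragm of animals 1, 2, 3 and 5 and 3.35 to 3.49 in that of animals 4, 6, 7 and 8, while psoas had 3.07 to 3.85. In animals 4, 6, 7 and 8 alone the muscle difference was 0.46 for ODC1 and -1.02 for SAT1. With the actin difference as a covariate over all arrays it was 0.61 and -0.97.

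Both genes also differed with feeding, in opposite directions. ODC1 was lower and SAT1 higher in the restricted animals, in each muscle. As means of both muscles, ODC1 measured 7.42, 7.86, 6.83 and 7.83 in animals 1, 4, 6 and 7 on the high level and 6.71, 6.96, 6.63 and 6.23 in animals 2, 3, 5 and 8 under restriction. Animal 6 on the high level lay below animal 3 under restriction, so that the groups overlapped through these 2 animals. The fitted difference, restricted minus high, was -0.86 ± 0.22 (SE, n = 4 animals each), or 1.81-fold higher on the high level. It lay between -1.05 and -0.65 when each animal was left out in turn.

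SAT1 averaged 10.13, 9.16, 9.68 and 9.30 in animals 1, 4, 6 and 7 on the high level and 9.80, 9.92, 10.10 and 10.26 in animals 2, 3, 5 and 8 under restriction. Animal 1 was the exception on the high level, with a value above those of restricted animals 2, 3 and 5. The fitted difference was 0.46 ± 0.22 (SE), or 1.37-fold. It was 0.70 without animal 1, more than 1.5 times as large, and 0.31 without animal 4. Neither difference carries a test here, since feeding was among the comparisons that the choice of genes may have used. By limma 0 of 11467 probe sets (0%) were called between feeding levels, with 1451 at an unadjusted p under 0.05.

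The feeding difference of ODC1 was -0.74 ± 0.33 in diaphragm and -0.97 ± 0.22 in psoas (log2, SE, n = 4 arrays each). Without animal 7 the value in diaphragm was -0.49. For SAT1 it was 0.39 ± 0.19 in diaphragm and 0.53 ± 0.27 in psoas. Without animal 4 the SAT1 value in diaphragm was 0.25, and without animal 1 it was 0.59. In psoas the SAT1 value was 0.33 without animal 7 and 0.81 without animal 1. Immune markers had a summed level of 9.90 to 10.26 in animals on the high level and 9.58 to 9.81 in restricted animals, lower where SAT1 was higher, and their part was not tested. Endothelial markers spanned 10.44 to 10.72 and 10.40 to 10.69. Adipocyte markers had 11.55 to 12.10 on the high level and 11.87 to 12.25 under restriction, overlapping and higher at both ends where SAT1 was higher, and their part was not tested. The actin difference went opposite ways in the muscles. In diaphragm it averaged 3.62 ± 0.44 on the high level and 3.996 ± 0.43 under restriction, and in psoas 3.53 ± 0.24 and 3.36 ± 0.26 (SD, n = 4 arrays each). Of the 4 diaphragm arrays with the higher actin difference, 3 were from restricted animals (2, 3 and 5) and 1 from the high level (animal 1). With the actin difference as a covariate the feeding difference over both muscles was -0.90 for ODC1 and 0.44 for SAT1. Within a muscle this covariate gave -0.59 in diaphragm and -0.85 in psoas for ODC1, and 0.26 and 0.34 for SAT1, the SAT1 values being over 1.5 times smaller than without it.

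The muscle difference itself changed with feeding by less than its spread. For ODC1, psoas exceeded diaphragm by 0.78 ± 0.74 on the high level and by 0.55 ± 0.49 under restriction (SD, n = 4 animals each). This contrast was -0.23 ± 0.33 (SE) and turned to 0.08 without animal 1 and 0.07 without animal 3. For SAT1 the within-animal differences were -1.01 ± 0.27 and -0.87 ± 0.09 (SD), a contrast of 0.14 ± 0.17 (SE) that was -0.0025 without animal 7.

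Muscle and feeding together ordered both genes in opposite ways at the ends. ODC1 was lowest in restricted diaphragm (6.35 ± 0.43, SD, n = 4 arrays), followed by restricted psoas (6.90 ± 0.34), diaphragm on the high level (7.09 ± 0.60) and psoas on the high level (7.88 ± 0.61). Each group's range overlapped that of its neighbour in this order, while the lowest and the highest group did not overlap and were 2.88-fold apart. SAT1 was lowest in psoas on the high level (9.06 ± 0.54), followed by restricted psoas (9.59 ± 0.23), diaphragm on the high level (10.07 ± 0.35) and restricted diaphragm (10.46 ± 0.18). Here too neighbours overlapped and the ends, 2.64-fold apart, did not. Psoas of well-fed animals thus held the most ODC1 and the least SAT1 transcript, and diaphragm of restricted animals the reverse.

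**Figure D2:**
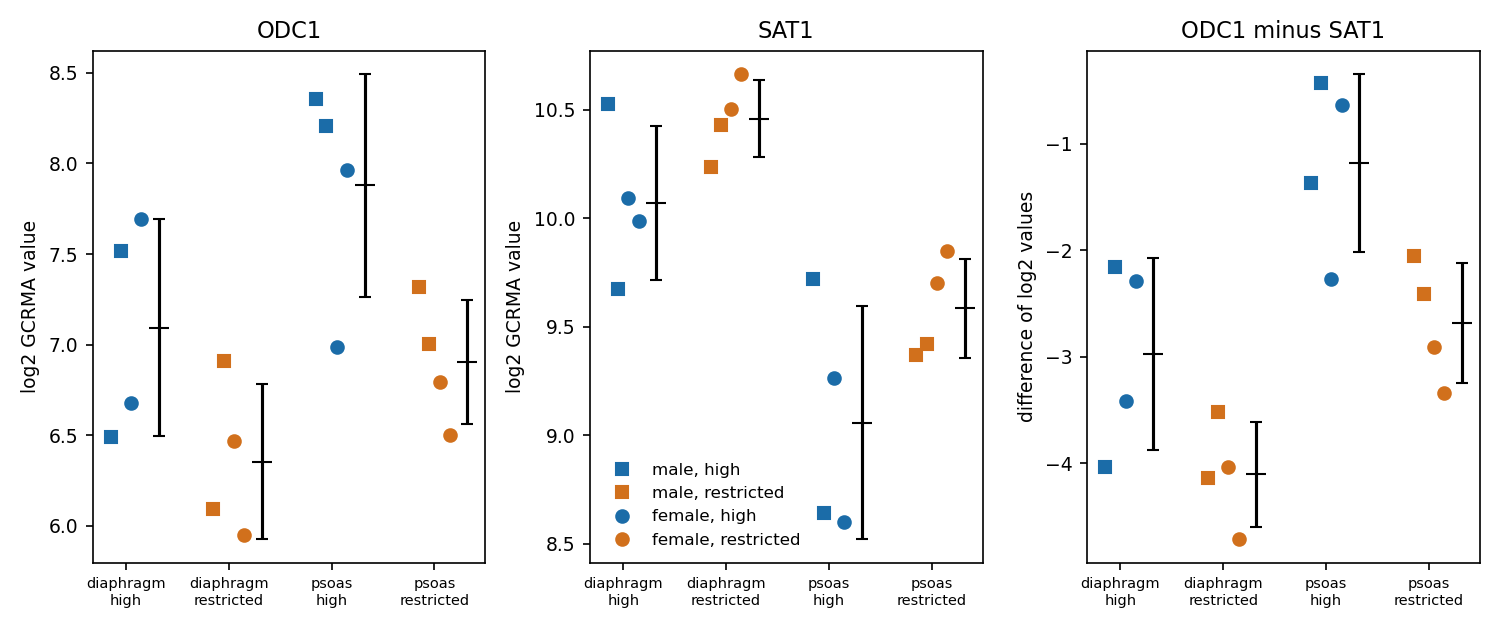
ODC1, SAT1 and ODC1 minus SAT1 by muscle and feeding level, in log2 values; points are arrays (marker gives the sex) and black bars are the mean ± SD of 4 arrays. ODC1 is highest in psoas on the high feeding level (7.88) and SAT1 in restricted diaphragm (10.46).

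As the mean of both muscles, ODC1 minus SAT1 was -2.70, -1.30, -2.85 and -1.47 in animals 1, 4, 6 and 7 on the high level and -3.10, -2.97, -3.48 and -4.03 in animals 2, 3, 5 and 8 under restriction. All 4 restricted animals lay below all 4 animals on the high level, with means 1.31 apart. This was larger than the spread of either group, at SD 0.81 and 0.48. Both genes were chosen with their opposite feeding differences known, so that the separation follows in part from the choice. It is a description and not a test. Animals 1 and 6 came close to the restricted animals and animals 4 and 7 stood well above them.

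Sex was not used to choose the genes and was tested over all probe sets. Neither gene was called between females and males, where 0.183% of probe sets were, 0.0959% higher and 0.0872% lower in females. ODC1 differed by -0.36 ± 0.22 (female minus male, log2, SE, n = 4 animals each; 95% interval -0.87 to 0.16, limma adjusted p = 0.70). SAT1, a gene of the X chromosome, differed by 0.08 ± 0.22 (95% interval -0.42 to 0.58, limma adjusted p = 0.95). These intervals are wide, and equality of the sexes is not shown. ODC1 minus SAT1 was -2.95 in females and -2.52 in males (exact permutation test over animals, two-sided, p = 0.51, the smallest possible being 0.029). Unlike the limma tests, this permutation took no account of feeding, so that the spread between feeding levels enters its p.

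Within psoas, both males lay above both females in ODC1 at each feeding level. Males on the high level had 8.35 and 8.21 and females 6.99 and 7.96, and restricted males had 7.32 and 7.01 and restricted females 6.79 and 6.50. The difference was -0.66 ± 0.22 (SE, 95% interval -1.16 to -0.16), with an unadjusted p of 0.016 and a limma adjusted p of 0.33, and so did not pass. It lay between -0.82 and -0.43 when each animal was left out in turn. In diaphragm it was -0.06 ± 0.33 (limma adjusted p = 0.98). SAT1 differed by 0.07 ± 0.27 in psoas and 0.10 ± 0.19 in diaphragm (limma adjusted p = 0.94 and 0.95). Of all probe sets 0.0523% were called higher and 0.0436% lower in females in psoas, and 0.0698% and 0.0523% in diaphragm. The comparisons within a muscle were added after the values were seen. The muscle difference of ODC1 was 0.97 ± 0.75 in males and 0.37 ± 0.13 in females (SD, n = 4 each). The test of this contrast gave -0.60 ± 0.33 (SE, limma adjusted p = 0.58), and for SAT1 -0.03 ± 0.17 (limma adjusted p = 0.97). By limma 0 of 11467 probe sets (0%) were called in it, with 1161 at an unadjusted p under 0.05.

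Animals with more SAT1 in diaphragm also had more SAT1 in psoas. To take out feeding, the mean of each feeding level was subtracted, and values were permuted within feeding levels (576 exact permutations, two-sided, 8 relations tested). SAT1 in diaphragm and psoas then correlated with Pearson's r = 0.90 (exact permutation p = 0.0052, adjusted p = 0.042) and Spearman's rho = 0.90 (exact permutation p = 0.012, adjusted p = 0.097, n = 8 animals). Without animals 1 and 4, the 2 farthest from the median, r was 0.76. For ODC1 the same relation had r = 0.24 (exact permutation p = 0.74, adjusted p = 0.82) and rho = 0 (exact permutation p = 1). Without animals 3 and 7 it was 0.22. The difference between both genes in this relation was not tested. SAT1 was chosen with its values in both muscles known, which can favour a high r between them. How many other genes reach such an r was not computed, so that the p-values of SAT1 here carry little weight.

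**Figure D3:**
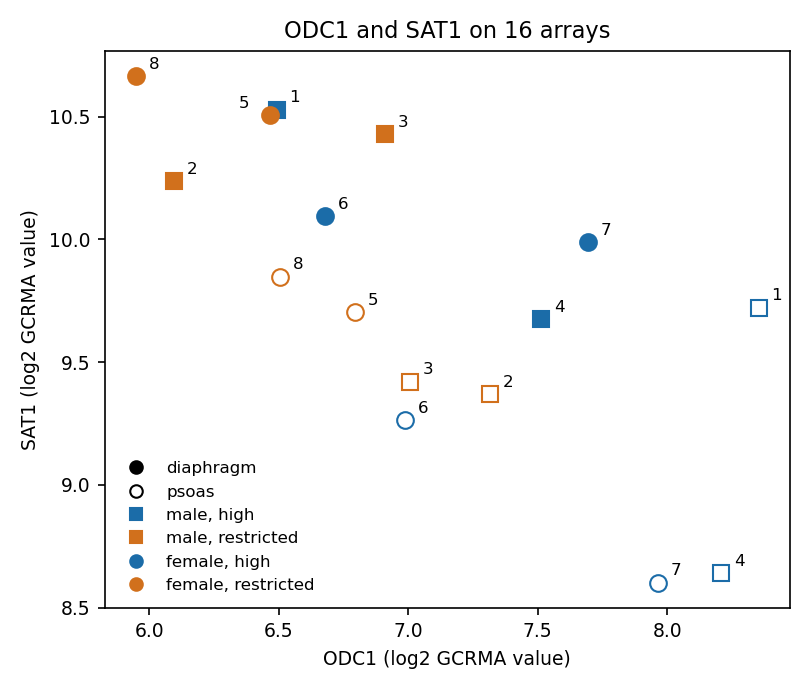
SAT1 against ODC1 on the 16 arrays, in log2 GCRMA values, with animal numbers; filled points are diaphragm and open points psoas, colour gives the feeding level and marker the sex. Before feeding is taken out, ODC1 and SAT1 have r = -0.77 in diaphragm and -0.56 in psoas, and with feeding means subtracted -0.62 and -0.22. The psoas arrays of animals 4 and 7 (SAT1 8.64 and 8.60) lie lowest.

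Across animals, ODC1 and SAT1 were inversely related in each muscle before feeding was taken out, with r of -0.77 in diaphragm and -0.56 in psoas. This includes the opposite feeding differences described above. Without the 2 animals of most extreme ODC1 in each muscle, these values were -0.33 and -0.96. With feeding means subtracted, r was -0.62 in diaphragm (exact permutation p = 0.19, adjusted p = 0.50, rho = -0.64, exact permutation p = 0.16) and -0.22 in psoas (exact permutation p = 0.79, adjusted p = 0.82, rho = -0.14, exact permutation p = 0.80). Leaving out the 2 animals farthest from the median gave -0.78 in diaphragm and 0.26 in psoas, where animals 6 and 8 were left out. The actin difference had r of -0.24 and 0.11 with ODC1 in diaphragm and psoas (exact permutation p = 0.60 and 0.82) and 0.35 and -0.58 with SAT1 (exact permutation p = 0.43 and 0.15, adjusted p = 0.82 and 0.50). With SAT1 in psoas rho was -0.74 (exact permutation p = 0.062, adjusted p = 0.25), and r was -0.88 without animals 5 and 7. Without 2 animals r with ODC1 was -0.33 in diaphragm and 0.29 in psoas, and r with SAT1 in diaphragm 0.38.

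The other genes of the pathway came from lists made by function, with earlier results of these data known. Of these, 46 were on the array under 1 symbol and 33 passed the filter. Between the muscles, 6 were called higher in psoas and 3 higher in diaphragm, or 9 of 33, where 27.0% of all tested probe sets were called, 14.6% higher in psoas and 12.4% higher in diaphragm. The share of these genes is thus close to the background. Their median difference was 0.07 and that of all tested probe sets 0.02.

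In synthesis itself, SRM, spermidine synthase, was higher in psoas in 8 of 8 animals. It measured 5.69 to 6.31 (median 6.06) in diaphragm and 6.32 to 6.89 (median 6.50) in psoas. The groups did not overlap, by a narrow margin. The difference was 0.49 ± 0.09 (SE, limma adjusted p = 0.0012), in the direction of ODC1. SMS, spermine synthase, differed by 0.11 ± 0.16 (limma adjusted p = 0.63) and was higher in psoas in 4 of 8 animals. Of the 2 tested synthesis genes other than ODC1, 1 was thus called.

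Among proteins that set the life of ornithine decarboxylase, OAZ1, antizyme 1, was lower in psoas in all 8 animals at its brighter probe set, by -0.94 ± 0.34 (SE). It missed the threshold (limma adjusted p = 0.053) and passed with the animal as a block (0.0028), without animal 1 (0.033) or animal 4 (0.011), and narrowly under 3 other alternatives (0.045 to 0.049). Its values were 12.83 to 14.65 in diaphragm and 10.65 to 13.31 in psoas. The second OAZ1 probe set differed by 0.15 ± 0.07 (limma adjusted p = 0.11), so that the probe sets disagreed in sign. OAZ2, antizyme 2, differed by 0.07 ± 0.11 and AZIN1, the antizyme inhibitor, by -0.05 ± 0.12, and none of these 3 genes was called.

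In breakdown, SMOX, spermine oxidase, differed by 0.26 ± 0.18 (limma adjusted p = 0.30), higher in psoas in 6 of 8 animals (0.15 with the actin covariate), with means of 4.72 in diaphragm and 4.97 in psoas that lie close to the floor. SAT2, a relative of SAT1, reached at most 4.55 and did not pass the filter. PAOX, the oxidase that acts on the products of SAT1, and AMD1, which supplies the aminopropyl donor, were not analysed here.

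For transport, SLC22A3, a transporter of organic cations, was lower in psoas by -1.11 ± 0.23 (SE, limma adjusted p = 0.0026). Its psoas mean was 3.94, below 4, so that its size rests in part on values near background. It measured 4.52 to 6.04 in diaphragm and 3.33 to 4.56 in psoas. It thus passed the filter through diaphragm, and its call in that direction depends in part on the filter. CAV1, caveolin-1, a membrane protein linked to polyamine uptake and abundant in endothelium and fat cells, was lower by -0.57 ± 0.10 (limma adjusted p = 8.9e-04), and all 3 of its probe sets were called in that direction. The endothelial and adipocyte markers given above moved the same way, and their part was not tested. SLC3A2, a transporter subunit, differed by 0.50 ± 0.23 (limma adjusted p = 0.11, and 0.050, just under the threshold, without animal 7). DHPS, deoxyhypusine synthase, which uses spermidine to modify the translation factor eIF5A, was higher in psoas by 0.28 ± 0.08 (limma adjusted p = 0.019), a call that was lost without animal 3, 5 or 7 (largest adjusted p over all alternatives 0.16). EIF5A differed by 0.07 ± 0.14.

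In the list of arginine and ornithine supply, GAMT makes creatine and not these amino acids. It was higher in psoas, with 8.91 to 9.69 in diaphragm and 10.04 to 10.61 in psoas (difference 0.90 ± 0.10 SE, limma adjusted p = 3.8e-05). The groups did not overlap. ASL, argininosuccinate lyase, was higher by 0.60 ± 0.21 (limma adjusted p = 0.043), a call lost in 9 of 15 alternatives, among them those without animal 1, 2, 3, 4, 6 or 7. With the actin covariate it was 0.33 (adjusted p = 0.24, the largest of all). SLC7A1, a carrier of arginine and ornithine, was lower in psoas in 8 of 8 animals, by -0.57 ± 0.23, and missed the threshold (limma adjusted p = 0.075). It passed with the animal as a block (0.013) and without animal 5 (0.041) or animal 8 (0.020). OAT, ornithine aminotransferase, differed by -0.23 ± 0.13 (limma adjusted p = 0.20) and was called without animal 1, at -0.40 (adjusted p = 0.0021). ARG2, an arginase, differed by 0.95 ± 0.42 (limma adjusted p = 0.11) with both means below 4, and was called without animal 5 (0.028). ASS1, argininosuccinate synthase, differed by -0.27 ± 0.20 (limma adjusted p = 0.35), with -0.14 without animal 4 and -0.54 with the actin covariate, and was not called under any alternative.

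In the supply of S-adenosylmethionine, AHCY, which removes S-adenosylhomocysteine, was higher in psoas by 0.60 ± 0.11 (limma adjusted p = 0.0012). APIP, an enzyme of the salvage of methionine from the by-product of spermidine synthesis, was higher by 0.51 ± 0.11 (0.0039), each in 8 of 8 animals. MAT2B, the regulatory subunit of methionine adenosyltransferase, was lower by -0.56 ± 0.10 (0.0011), and both of its tested probe sets were called in that direction. MAT2A, the catalytic subunit, differed by -0.09 ± 0.14 (0.65). ENOPH1, also of the salvage route, differed by 0.33 ± 0.14 and missed the threshold (0.089). It passed with the animal as a block (0.029), without animal 8 (0.044) and, at 0.56, with the actin covariate (0.0035).

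Regulators were not called between the muscles. MYC, a transcription factor known to drive ODC1, differed by -0.02 ± 0.26 and MXI1, an antagonist of MYC, by 0.18 ± 0.10 (0.10 without animal 5). CEBPB and STAT3, factors linked to SAT1 induction, differed by -0.11 ± 0.12 and 0.11 ± 0.17. The anabolic and steroid response genes AKT1, NR3C1 and FKBP5 differed by -0.07 ± 0.10, 0.20 ± 0.13 and 0.32 ± 0.30 (limma adjusted p from 0.27 to 0.62), although FKBP5 passed with the animal as a block (0.049). NR3C1 was 0.07 without animal 3 and -0.03 in animals 4, 6, 7 and 8 alone. With that block 13 of the 33 genes were called, including all 9 above. In animals 4, 6, 7 and 8 alone GAMT was the 1 gene called, with 4 animals in place of 8.

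**Figure D4:**
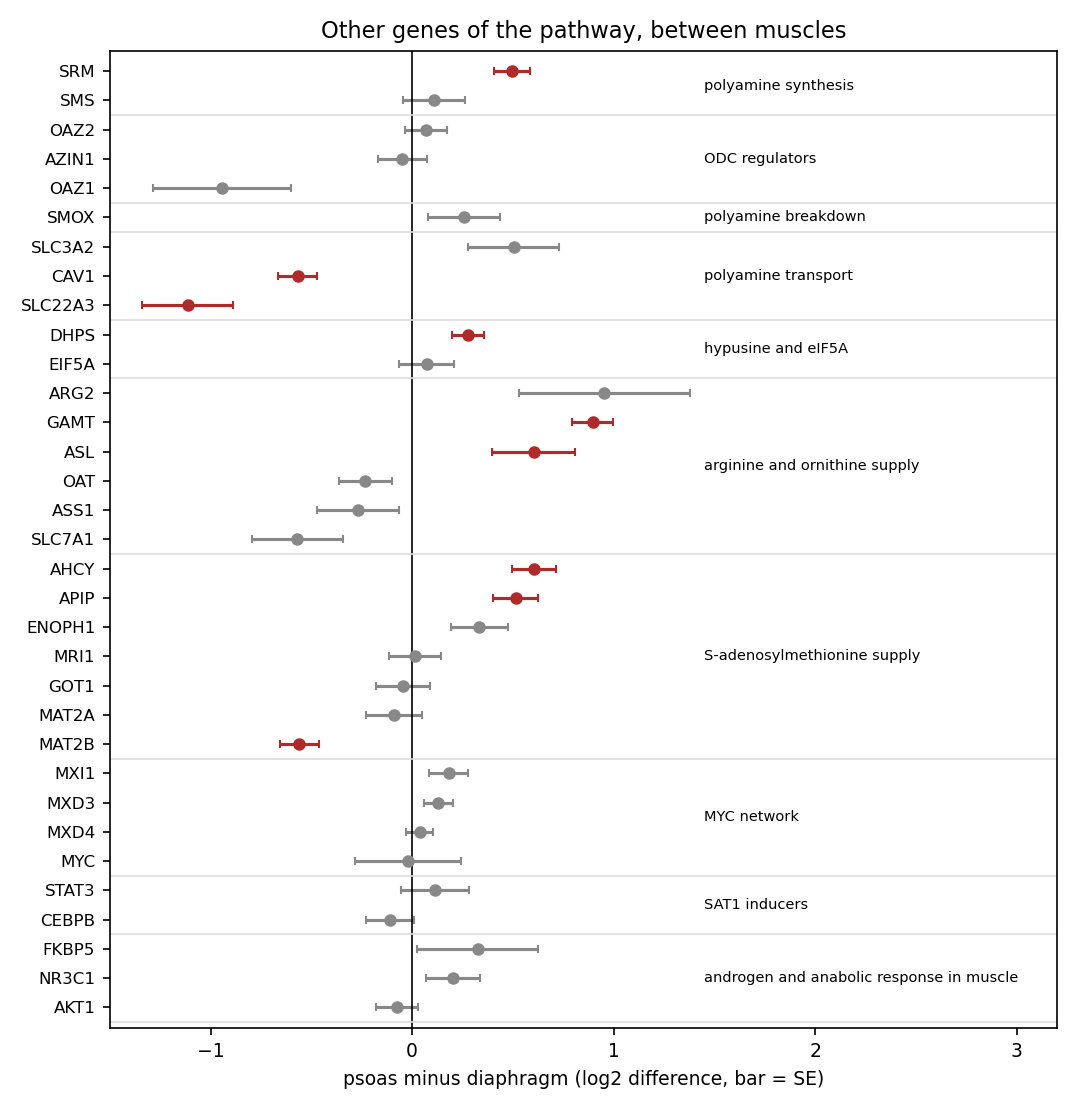
Difference between psoas and diaphragm (log2, bars are SE) of the 33 tested genes of the pathway other than ODC1 and SAT1, grouped by role; red marks genes called by limma at an adjusted p under 0.05. Of the 33 genes 6 are called to the right of 0 (higher in psoas) and 3 to the left.

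None of the 33 genes was called between feeding levels (limma, 3 at an unadjusted p under 0.05). The 3 were AKT1, a kinase of insulin and growth signalling, AHCY and SRM, all lower under restriction like ODC1. AKT1 had animal means of 6.50 to 6.94 on the high level and 5.92 to 6.66 under restriction (difference -0.53 ± 0.12 SE, limma adjusted p = 0.28). AHCY differed by -0.34 ± 0.11 (limma adjusted p = 0.31) and SRM by -0.25 ± 0.11 (limma adjusted p = 0.39). SMOX differed by -0.32 ± 0.19 and OAZ1, at its brighter probe set, by 0.32 ± 0.43 (SE), neither of which was called. The second OAZ1 probe set differed by -0.083 ± 0.087, so that the probe sets disagreed in sign here too. EIF5A differed by 0.25 ± 0.12 (limma adjusted p = 0.41).

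None was called between the sexes either (limma, 8 at an unadjusted p under 0.05). MXI1 came closest, with animal means of 7.28 to 7.52 in males and 7.83 to 8.03 in females that did not overlap (difference 0.55 ± 0.08 SE, limma adjusted p = 0.051). Its adjusted p was 0.0057 without a filter, 0.040 with a stricter filter at 6 and 0.12 to 0.23 when each animal was left out, with a range of 0.0057 to 0.88 over all its alternatives. The highest came from animals 4, 6, 7 and 8 alone, and the difference itself stayed between 0.52 and 0.58. MYC was lower in females by -0.92 ± 0.30 (limma adjusted p = 0.42) and SMS by -0.44 ± 0.17 (0.51). The smallest limma adjusted p was 0.32 in the list of S-adenosylmethionine supply and 0.40 in that of SAT1 inducers. In the former, APIP averaged 10.11 in males and 10.54 in females, and GOT1 12.10 and 11.70. In the latter, CEBPB averaged 10.92 in males and 11.31 in females.

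Genes with the pattern most like each member were picked by the highest Pearson correlation over the 16 arrays among 4571 genes, which is a description over arrays that share animals and muscles. For ODC1 these were MORF4L2 (r = 0.95), CIAPIN1 (0.93), EEF1E1 (0.92), SNRPA1 (0.92) and FARSA (0.92). With each muscle's mean subtracted they were WDR26 (0.97), MORF4L2 (0.95), EIF2S1 (0.94), HSP90AA1 (0.94) and HSPA9 (0.91). HSP90AA1 and HSPA9 are chaperones, EIF2S1 is a subunit of translation initiation factor eIF2, FARSA a subunit of a transfer RNA synthetase and EEF1E1 a component of the synthetase complex. For SAT1 the genes were COPG2 (r = 0.94), JAG1 (0.91), ACADL (0.91), SPARCL1 (0.90) and S1PR1 (0.90), and after subtraction EMILIN2 (0.93), SCAMP1 (0.92), SMARCA1 (0.91), MAP2K6 (0.91) and ANGPT1 (0.90). JAG1 is a Notch ligand, ACADL an enzyme of fatty acid oxidation, and S1PR1 a receptor of endothelium. Between them, ODC1 and SAT1 had r = -0.72 over 16 arrays and -0.64 with muscle means subtracted.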

How the data were processed

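Total RNA of 16 muscle samples was labelled and hybridised to Affymetrix porcine arrays, per the labels' protocols. The authors deposited log2 values, 1 per probe set and array, made with GCRMA per the submitters' processing notes, without a version. Of 24123 probe sets, 10099 had 1 gene symbol, 198 several and 13826 none, and only those with 1 were named. Each gene is represented by its tested probe set of highest mean.

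After 124 control probe sets were removed, the 11467 probe sets at or above 4 on at least 4 arrays entered the linear models of limma (version 3.58.1, R version 4.3.3), and p-values were adjusted by Benjamini-Hochberg over all of them. Muscles were compared on 16 arrays with sex and feeding as covariates, feeding and sex on the means of 8 animals, and contrasts of the muscle difference on within-animal differences. Arrays of 1 animal were matched by the animal number of the labels for the means and within-animal differences. The main muscle fit had no term for the animal, so that its SE and calls do not use the pairing, which only the block alternative does. Over all tested probe sets, the residuals of an animal's 2 arrays correlated at 0.072 to 0.26. Single genes can differ from this, as SAT1 did with r = 0.90 between muscles after feeding means were subtracted. Alternatives were other filters, scalings, covariates and probe sets, the animal as a block, an actin covariate, and fewer animals.

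On simulated data of 11467 probe sets, 95% of muscle differences of 1 (log2) and 85% of sex differences of 1 were recovered, and 20% of muscle by sex contrasts of 1. These shares hold for the simulated noise only. If both arrays of an animal vary together, as for SAT1 (r = 0.90 with feeding means subtracted), fewer sex and feeding differences can be recovered. The number of arrays limits the precision. The members, marker lists and pathway lists were chosen with earlier results of these data known, and the sex comparisons within a muscle after its values were seen. Named were both members, pathway genes that were called or had the smallest p of their list, with others of these lists for comparison, and the 5 genes most correlated with each member. The text names further pathway genes chosen after their values were seen.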

Additional observations from a re-analysis of the deposited data

Results flagged for a closer look

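The SAT1 difference between the muscles in animal 7, a female on the high feeding level, was -1.39 (psoas minus diaphragm, log2) and stood apart from the other 7 animals, whose values lay between -1.03 and -0.80. It also stood apart among the 4 females, where the other 3 had -0.83 to -0.80. Of 45 sets of values of ODC1, SAT1 and ODC1 minus SAT1 examined in this way, these 2 were picked out, and chance picks out about 1 in 20. Without animal 7 the fitted SAT1 muscle difference was -0.88.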

How the results depend on the processing

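On their expressed probe sets, the muscle and feeding differences of ODC1 and SAT1 kept their direction under every alternative. In this balanced design the other filters, the fit without covariates and the animal block return the same differences by construction. Only the scalings, the actin covariate and fewer animals could change them. Leaving out each animal in turn gave 0.50 to 0.75 (ODC1) and -0.96 to -0.88 (SAT1) between muscles and -1.05 to -0.65 and 0.31 to 0.70 between feeding levels. With the animal as a replicate block the muscle differences were 0.67 and -0.94, and 13 in place of 9 pathway genes were called, of 3836 in place of 3094 probe sets. The block changed no call of ODC1 or SAT1 by sex.

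The second ODC1 probe set, below 4 on every array, gave -0.0029 between muscles, 0.0043 between feeding levels, 0.0020 and 0.0065 between feeding levels in diaphragm and psoas, 0.0093 for muscle by sex and 0.0016 for sex in psoas. Set against SAT1 it gave 0.94 between muscles and -0.45 between feeding levels.

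Small sex differences changed sign. SAT1 muscle by sex was 0.015 after quantile normalization, 0.019 after median centring, 0.14 with the actin covariate and -0.11 to 0.11 without single animals. Without single animals the sex difference of SAT1 was -0.065 to 0.32, in diaphragm -0.044 to 0.30 and in psoas -0.087 to 0.35, and that of ODC1 in diaphragm -0.31 to 0.15. Of the pathway genes 1 was called between muscles in animals 4, 6, 7 and 8 alone, and 1, MXI1, between sexes without a filter and with the stricter one. The cause was not tested. Values of genes near 4 are compressed, and 8 animals limit every feeding and sex comparison.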
